A study of Mus musculus with 2 samples.

Results

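The aminoacyl-tRNA synthetase genes were compared in 2 RNA-seq libraries of mouse splenic γδ T cells, the T lymphocytes whose antigen receptor is built from a γ and a δ chain. Members were taken by gene symbol (a letter for the amino acid followed by "ars", with an optional final 1 or 2, together with Farsa, Farsb and Eprs), which gave the 36 genes described here, of 24091 in the table. The 20 without a final 2 encode cytosolic enzymes and the 16 ending in 2 encode mitochondrial ones. There was 1 library of IL-2 expanded cells and 1 library of freshly isolated cells. Per the labels, the cells came from spleen and had been isolated by flow sorting, and for expansion they received plate-bound anti-CD3, soluble anti-CD28 and recombinant mouse IL-2 at 100 U/ml for 5 days. The protocols are worded alike for both libraries, and the freshly isolated one was read as uncultured from its treatment label. The comparison therefore joins activation, culture and IL-2, whose parts cannot be told apart. The labels used here give no strain, genotype, sex or age and do not say how many animals were pooled.

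Aminoacyl-tRNA synthetases join each amino acid to its tRNA, the step that gives the genetic code its meaning during translation. Mammalian cells keep separate nuclear genes for most cytosolic and mitochondrial enzymes, whereas Gars (glycine) and Kars (lysine) each serve both compartments. Glutamine is charged in the cytosol by Qars, while mitochondria first charge its tRNA with glutamate through Ears2 and then convert it. Several cytosolic enzymes sit in a multisynthetase complex held together by the scaffold proteins Aimp1, Aimp2 and Eef1e1. In activated lymphocytes protein synthesis increases, and ATF4, a transcription factor of the amino acid response, is known to drive a number of cytosolic synthetase genes through a DNA element called CARE (C/EBP-ATF response element).

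The stretches around matches to this element are shown first, because ATF4 is known to act through it on cytosolic synthetase genes. Windows from 250 bases before to 50 bases after the RefSeq start (build GRCm38.p6) were found for 27 of the 36 genes. Cars, Hars, Hars2, Lars, Nars, Pars2, Rars, Vars and Wars had none. The letters TGATGCAAT or TGATGAAAT were searched on both strands, and then the shorter TGATGNAA, which every match of the longer letters also contains and which was added after values had been seen. Capitals mark the match, each sequence runs 5′ to 3′ along the gene, and the capitals of Aars, Gars, Iars and Tars are the reverse complement of the searched letters. The first 3 hold the longer letters and the last 2 the shorter ones.
Aars: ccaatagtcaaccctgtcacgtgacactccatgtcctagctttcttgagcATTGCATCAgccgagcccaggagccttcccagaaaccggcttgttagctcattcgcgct
Iars: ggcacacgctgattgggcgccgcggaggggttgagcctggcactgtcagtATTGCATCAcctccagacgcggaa
Gars: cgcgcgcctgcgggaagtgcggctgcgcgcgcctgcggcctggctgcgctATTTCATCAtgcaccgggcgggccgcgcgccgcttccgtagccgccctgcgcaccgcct
Tars: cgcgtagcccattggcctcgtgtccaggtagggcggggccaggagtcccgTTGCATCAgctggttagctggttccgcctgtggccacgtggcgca
Yars: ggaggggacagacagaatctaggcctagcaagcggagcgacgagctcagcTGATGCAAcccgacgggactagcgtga
The stretches lie at chr8:111033679-111033787 (plus strand) for Aars, chr13:49682086-49682159 (plus strand) for Iars, chr6:55037920-55038028 (plus strand) for Gars, chr15:11399629-11399723 (minus strand) for Tars and chr4:129189856-129189932 (plus strand) for Yars. Counted from the RefSeq start, the match begins at base -113 in Aars, base 7 in Iars, base -31 in Gars, base -15 in Tars and base 4 in Yars, whose RefSeq start lies 108 bases downstream of the deposited gene start. The longer letters stood in the windows of 3 of 13 cytosolic and 0 of 14 mitochondrial genes, against 0.5% of the 27025 genes with a window. The shorter letters stood in 5 of 13 cytosolic and 0 of 14 mitochondrial genes, against 4.51% of genes with a window. Because 7 of the 20 cytosolic genes had no window, these counts do not cover the whole group. The E-box letters CACGTG, read by MYC among other factors, stood in 4 of 13 cytosolic genes (Aars, Farsb, Iars and Tars) and in 1 of 14 mitochondrial genes (Ears2), against 8.09% of genes with a window. Aars held another match of the shorter letters at base 10. A match describes letters only, and binding was not measured.

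Total counts were 22204099 in the expanded and 20379385 in the freshly isolated library, so that 1 count equalled 0.0476 CPM in the expanded and 0.0465 CPM in the freshly isolated library (CPM, counts per 1000000 after scaling). With 1 library per group no difference has a replicate check and none was tested. Folds are ratios of CPM, expanded over freshly isolated, and their exact 95% intervals cover counting error only. In bulk RNA, fewer cells of a type and less RNA per cell cannot be told apart. Of 5 T cell markers, Cd3e (688 CPM in expanded and 734 CPM in freshly isolated cells), Cd3g and Cd3d differed by at most 1.19-fold between the libraries. Cd247, the CD3 zeta chain, had 243 CPM in expanded and 447 CPM in freshly isolated cells (1.84-fold lower), and the adhesion receptor gene Cd2 had 76.2 CPM in expanded and 396 CPM in freshly isolated cells (5.19-fold lower). Markers of other spleen cells were carried mainly by the freshly isolated library. The summed level of 9 macrophage and monocyte markers was 20.9 CPM in expanded and 881 CPM in freshly isolated cells. Of the 9, 8 were at least 2-fold lower, and Vcam1, Sirpa, Slc40a1, Cybb and Lyz2 had 0 counts in expanded cells. The exception was Cd68, with 20.7 CPM in expanded and 38.3 CPM in freshly isolated cells (1.85-fold lower). Cd68 thus made up nearly all of the expanded sum. Of 7 B cell and plasma cell markers, 6 reached a mean of 1 CPM and all 6 were at least 2-fold lower. Their sum was 3.71 CPM in expanded and 909 CPM in freshly isolated cells, 784 CPM of the latter being Jchain. Jchain, Cd79a, Ms4a1 and Pax5 had 0 counts in expanded cells. All 4 erythroid markers had 0 counts in expanded cells and together 74.0 CPM in freshly isolated cells. Apart from Cd68 and Cd79b, the markers of other cells that reached the minimum did so only through the freshly isolated library. Their call as lower followed from it. Of 17 immediate early and dissociation genes, 14 were at least 2-fold lower in expanded cells, against 25.0% of all genes compared. The part of these differences in the synthetase values was not tested. With both libraries scaled to equal summed counts of Cd3e, Cd3g and Cd3d, an alternative chosen after seeing the data, the median log2 fold of the cytosolic synthetases was 1.71, against 1.76 in the scaling used throughout. Because these genes were already nearly level, this scaling could move the median little. It does not address the cells of other types.

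Most cytosolic synthetase transcripts were more abundant in the expanded cells, and the mitochondrial ones divided around no change. All 36 genes passed the minimum of 1 CPM. Of the 20 cytosolic genes, 17 were at least 2-fold higher in expanded cells, 4 of them at least 4-fold, and none was at least 2-fold lower. Of the 16 mitochondrial genes, 1 was higher and 1 lower by 2-fold or more, and 14 lay between. Among all 11715 genes compared, 22.4% were higher by 2-fold or more, 8.92% by 4-fold or more, and 25.0% were lower by 2-fold or more. The median log2 fold was 1.76 for cytosolic genes, -0.18 for mitochondrial genes and 0.04 for all genes compared. The medians of the cytosolic and mitochondrial genes differed by 1.94 on the log2 scale. The cytosolic share of 2-fold higher genes was thus well above the background, and the mitochondrial share was below it in both directions.

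**Figure D1:**
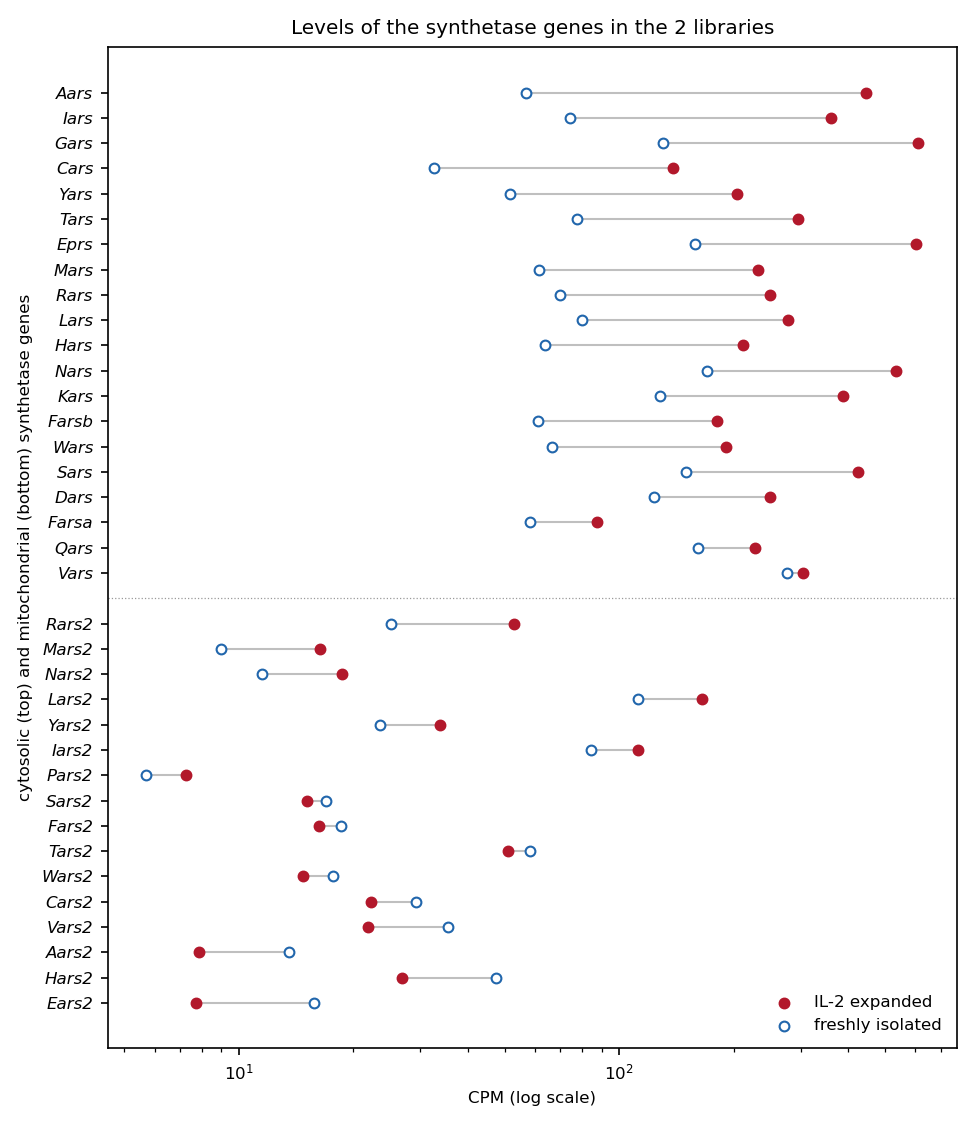
CPM (log axis) of each of the 36 synthetase genes in IL-2 expanded (filled) and freshly isolated cells (open), cytosolic genes above the dotted line and mitochondrial genes below, each ordered by fold. Filled points lie right of open points for all 20 cytosolic genes, and 9 of 16 mitochondrial genes have the filled point on the left.

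Summed over the genes of a compartment, cytosolic synthetases stood at 6216 CPM in expanded and 2050 CPM in freshly isolated cells, a ratio of 3.03, and mitochondrial synthetases at 590 CPM in expanded and 524 CPM in freshly isolated cells, a ratio of 1.13. The 36 genes took 0.644% of all counts in the expanded and 0.272% in the freshly isolated library. The summed cytosolic level was 10.5 times the mitochondrial one in expanded cells and 3.91 times in freshly isolated cells.

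The alanine enzyme gene Aars (chromosome 8, 111033842 to 111055569, build GRCm38) moved furthest. It had 445 CPM in expanded and 56.9 CPM in freshly isolated cells, 7.82-fold higher (interval 7.37 to 8.31), and 5.17% of all genes compared had a larger log2 fold. Its enzyme also removes serine and glycine that it has attached by mistake. The isoleucine gene Iars (chromosome 13, 49682130 to 49734267) had 361 CPM in expanded and 74.2 CPM in freshly isolated cells, 4.87-fold higher (4.62 to 5.15). The glycine gene Gars (chromosome 6, 55038001 to 55079504), one of the pair serving both compartments, had 612 CPM in expanded and 130 CPM in freshly isolated cells, 4.70-fold higher (4.51 to 4.90). The windows of these 3 genes held the longer letters, but several cytosolic genes, Cars among them, had no window. Any link between the letters and the size of the fold was not tested. The cysteine gene Cars (chromosome 7, 143557230 to 143600090) had 138 CPM in expanded and 32.6 CPM in freshly isolated cells, 4.24-fold higher (3.90 to 4.61), and the tyrosine gene Yars (chromosome 4, 129189795 to 129219607) had 204 CPM in expanded and 51.5 CPM in freshly isolated cells, 3.96-fold higher (3.71 to 4.24). Aars stood clear of the others by counting error, while the intervals of Cars and Yars overlapped.

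A broad middle group of cytosolic genes lay between 2.84-fold and 3.82-fold higher. Tars, for threonine, led it with 295 CPM in expanded and 77.3 CPM in freshly isolated cells, followed by Eprs, a single protein that charges both glutamate and proline, with 604 CPM in expanded and 159 CPM in freshly isolated cells. Mars charges methionine and so also the initiator tRNA, and it had 231 CPM in expanded and 61.6 CPM in freshly isolated cells (3.76-fold higher). The genes for arginine (Rars), leucine (Lars), histidine (Hars), asparagine (Nars) and lysine (Kars) were 3.57-fold, 3.48-fold, 3.32-fold, 3.15-fold and 3.03-fold higher. Wars, the tryptophan enzyme that interferon γ is known to induce in other cells, had 191 CPM in expanded and 66.8 CPM in freshly isolated cells (2.86-fold higher, 2.69 to 3.04), and Sars, for serine, had 425 CPM in expanded and 149 CPM in freshly isolated cells (2.84-fold). Within this group neighbours in the order had overlapping intervals, while those of Tars (3.62 to 4.04) and Eprs (3.67 to 3.96) lay wholly above those of Nars (3.04 to 3.27) and Sars (2.73 to 2.96).

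**Figure D2:**
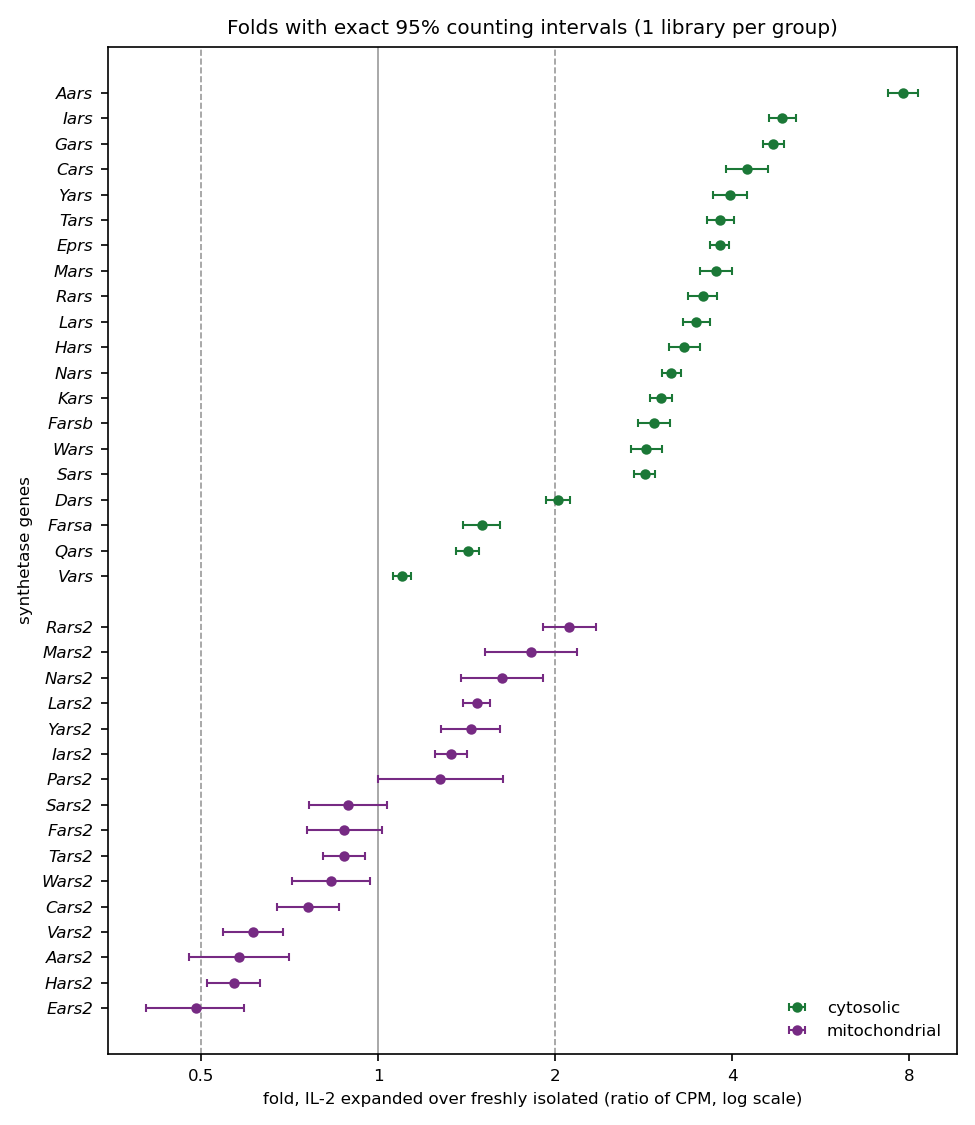
Fold (expanded over freshly isolated, log axis) of each synthetase gene with its exact 95% counting interval, cytosolic in green and mitochondrial in purple; dashed lines mark 2-fold in each direction. The cytosolic genes run from Aars at 7.82 to Vars at 1.10, and the mitochondrial genes from Rars2 at 2.11 to Ears2 at 0.489.

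The last 4 cytosolic genes moved least. Dars, for aspartate, had 249 CPM in expanded and 123 CPM in freshly isolated cells, 2.02-fold higher with an interval that spans 2-fold (1.93 to 2.12), and 5 of the 9 other settings tried for it put it just under that line. Phenylalanine is charged by an enzyme of paired α and β subunits, encoded by Farsa and Farsb, and the 2 genes differed. Farsb had 180 CPM in expanded and 61.1 CPM in freshly isolated cells (2.95-fold higher, 2.77 to 3.14), whereas Farsa had 87.3 CPM in expanded and 58.3 CPM in freshly isolated cells (1.50-fold higher, 1.39 to 1.61). Qars, the glutamine enzyme, had 228 CPM in expanded and 161 CPM in freshly isolated cells (1.42-fold higher, 1.36 to 1.48). The valine gene Vars (chromosome 17, 35000907 to 35016329) was nearly level, with 304 CPM in expanded and 277 CPM in freshly isolated cells (1.10-fold higher, 1.06 to 1.14), and its log2 fold turned to -0.02 under scaling by total count. The deposited spans of 10 synthetase genes overlap another gene, 4 of them a gene on the opposite strand with at least 100 counts over both libraries. The span of Vars overlaps D17H6S56E-5, which had 8403 counts in expanded and 2624 counts in freshly isolated cells, by 52 bases. That of Mars overlaps Ddit3 by 68 bases, that of Iars2 overlaps Rab3gap2 by 85 bases and that of Yars overlaps C77080 by 30 bases. Reads at these ends could belong to either gene of a pair. On the same strand, the span given for Eno1b covers Pars2 and Yars whole, and Eno1b had 15 counts in expanded and 12 counts in freshly isolated cells. The other overlapping genes had at most 2 counts in a library.

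Levels between genes were compared per kb of the gene length given in the deposited table. In expanded cells the cytosolic genes ran from 20.4 CPM per kb (Farsa) to 258 CPM per kb (Gars), a 12.7-fold range with a median of 82.4. In freshly isolated cells they ran from 10.2 CPM per kb (Cars) to 64.4 CPM per kb (Nars), a 6.32-fold range with a median of 26.2. The order was partly kept, with Nars at 2 of 36 and Kars at 3 of 36 in expanded cells, and Nars at 1 of 36 and Kars at 3 of 36 in freshly isolated cells. Aars ranked 4 of 36 per kb in expanded cells and 19 of 36 in freshly isolated cells. Vars went the other way, at 16 of 36 in expanded and 2 of 36 in freshly isolated cells, as did Qars, at 18 of 36 in expanded and 6 of 36 in freshly isolated cells. Mitochondrial genes were lower per kb, with a median of 6.86 CPM per kb in expanded and 7.52 CPM per kb in freshly isolated cells. The cytosolic median per kb was above the mitochondrial one in both libraries.

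Mitochondrial enzymes charge the tRNAs that the mitochondrial genome encodes, for the few respiratory chain proteins made inside the organelle. Of the 16 genes, 7 were higher and 9 lower in expanded cells. The counting interval lay above 1 for 6 of them, below 1 for 7 and across 1 for 3. Of all 11715 genes compared, it lay above 1 for 5330, below 1 for 5071 and across 1 for 1314. Rars2, for arginine (chromosome 4, 34614958 to 34660167), moved furthest up, with 53.0 CPM in expanded and 25.1 CPM in freshly isolated cells, 2.11-fold higher (1.91 to 2.35). Next were Mars2 (methionine), with 16.3 CPM in expanded and 8.97 CPM in freshly isolated cells (1.82-fold higher), and Nars2 (asparagine), with 18.7 CPM in expanded and 11.5 CPM in freshly isolated cells (1.62-fold). Lars2, Yars2 and Iars2 were between 1.33-fold and 1.47-fold higher, and Lars2, for leucine, had the highest mitochondrial CPM in both libraries, at 165 CPM in expanded and 112 CPM in freshly isolated cells. For Pars2, the proline gene and the lowest by count, the interval spanned no change (7.28 CPM in expanded, 5.71 CPM in freshly isolated cells, 0.998 to 1.63).

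Among the lower mitochondrial genes, Ears2 (chromosome 7, 122034162 to 122067086) had 7.71 CPM in expanded and 15.7 CPM in freshly isolated cells, 2.04-fold lower (1.69 to 2.48). Hars2 had 26.9 CPM in expanded and 47.4 CPM in freshly isolated cells (1.76-fold lower), Aars2 had 7.85 CPM in expanded and 13.5 CPM in freshly isolated cells (1.72-fold lower), and Vars2 had 21.8 CPM in expanded and 35.5 CPM in freshly isolated cells (1.63-fold lower). Cars2 was 1.32-fold lower, and Wars2 and Tars2 were 1.20-fold and 1.14-fold lower. Sars2, at 15.1 CPM in expanded and 17.0 CPM in freshly isolated cells, and Fars2, at 16.2 CPM in expanded and 18.5 CPM in freshly isolated cells, had intervals across no change.

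Set side by side for the same amino acid, the cytosolic gene had the larger log2 fold in every pair compared. There were 17 pairs over 16 amino acids, with Eprs set against both Ears2 and Pars2 and both phenylalanine subunits set against Fars2. The counting intervals of the 2 folds were apart in all 17. Such intervals are narrow at these counts, spanning 1 in only 1314 of all 11715 genes compared. How often those of other gene pairs lie apart was not computed. The excess of the cytosolic over the mitochondrial log2 fold ran from 0.76 (arginine) to 3.74 (alanine), with a median of 1.67, and was at least 1 in 13 pairs. In 10 pairs the cytosolic gene was higher and the mitochondrial gene lower in expanded cells. Alanine stood at one end, where Aars was 65.0 times Aars2 per kb in expanded cells and 4.83 times in freshly isolated cells. For glutamate, Eprs was 72.2 times Ears2 per kb in expanded and 9.28 times in freshly isolated cells. The histidine genes Hars and Hars2 lie head to head on chromosome 18 with 3 bases between their deposited spans, and Hars was 3.32-fold higher while Hars2 was 1.76-fold lower. Cars was 4.28 times Cars2 per kb in expanded cells but 0.767 times in freshly isolated cells, the one amino acid whose mitochondrial gene was the higher per kb there.

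**Figure D3:**
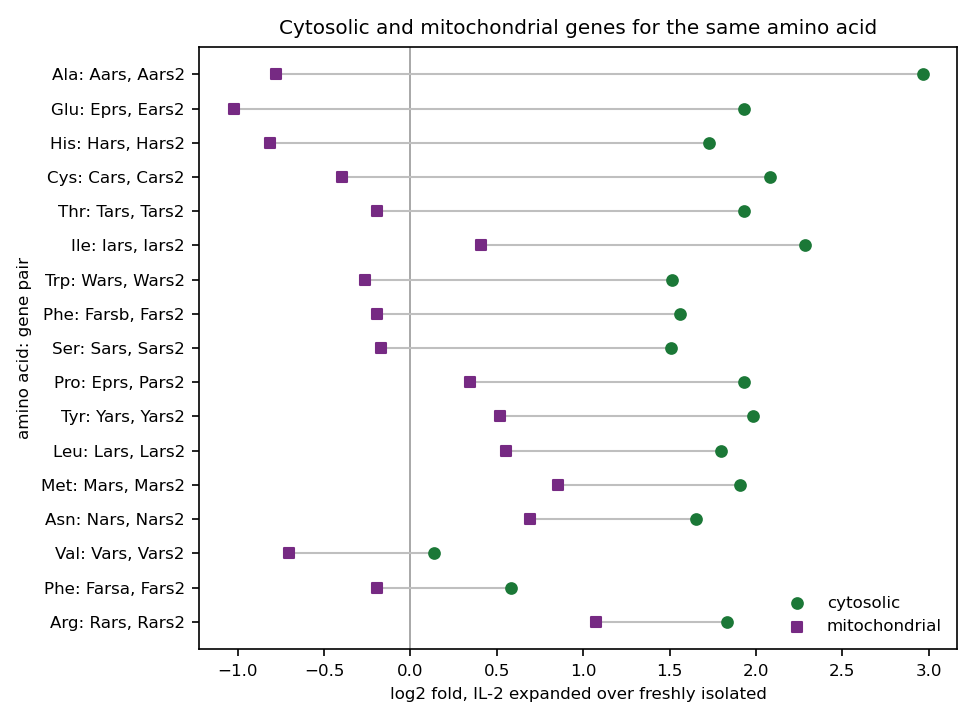
Log2 fold (expanded over freshly isolated) of the cytosolic (circles) and mitochondrial (squares) gene for the same amino acid, ordered by the difference. The circle lies right of the square in all 17 pairs, by 0.76 for arginine and 3.74 for alanine.

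Cytosolic genes inside and outside the multisynthetase complex had similar values. Of the 8 synthetases in the complex, 7 were at least 2-fold higher (median log2 fold 1.82, summed level 2588 CPM in expanded and 856 CPM in freshly isolated cells), and of the 12 outside it, 10 were (median 1.69, summed level 3629 CPM in expanded and 1195 CPM in freshly isolated cells). All 3 scaffolds were at least 2-fold higher as well. The share at least 2-fold higher among all genes compared was 22.4%. Eef1e1 had 94.8 CPM in expanded and 23.4 CPM in freshly isolated cells (4.06-fold, 3.68 to 4.48), Aimp2 had 64.2 CPM in expanded and 17.4 CPM in freshly isolated cells (3.68-fold), and Aimp1 had 125 CPM in expanded and 54.1 CPM in freshly isolated cells (2.32-fold). The structural classes of synthetases differ in the fold of the catalytic domain, and Eprs, which holds a domain of each, was left out here. By median the classes were likewise close, with 7 of 9 class I genes (median 1.83) and 9 of 10 class II genes (median 1.63) at least 2-fold higher. The summed level, expanded over freshly isolated, had a ratio of 2.50 for class I and 3.37 for class II, the opposite order.

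Most genes known to respond to ATF4 moved in the same direction, with a larger median. Of 26, 21 were higher by 2-fold or more, 15 of them by 4-fold or more, and 1 was lower by 2-fold or more. Vldlr, Slc1a4 and Slc7a11 had 0, 0.604 and 0.465 CPM in freshly isolated cells. They reached the minimum of 1 CPM only through the expanded library, so their call as higher followed from it. The list was chosen with earlier results of these data known. For all genes compared these shares were 22.4%, 8.92% and 25.0%. The median log2 fold was 2.70, against 0.04 for all genes compared. Asns, which makes asparagine, had 307 CPM in expanded and 2.37 CPM in freshly isolated cells, 129-fold higher (98.4 to 174). Trib3, a pseudokinase that restrains ATF4, had 88.7 CPM in expanded and 1.30 CPM in freshly isolated cells, 68.2-fold higher (47.0 to 103). The members furthest down were Cebpb, a partner factor of ATF4, with 14.1 CPM in expanded and 114 CPM in freshly isolated cells (8.08-fold lower), and Atf4 itself, with 563 CPM in expanded and 712 CPM in freshly isolated cells (1.26-fold lower). Ddit3 (1.24-fold lower) and Slc3a2 (1.05-fold lower) also had intervals below 1. These counts measure neither translation nor ATF4 protein, and any part of ATF4 in the synthetase values was not tested.

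**Figure D4:**
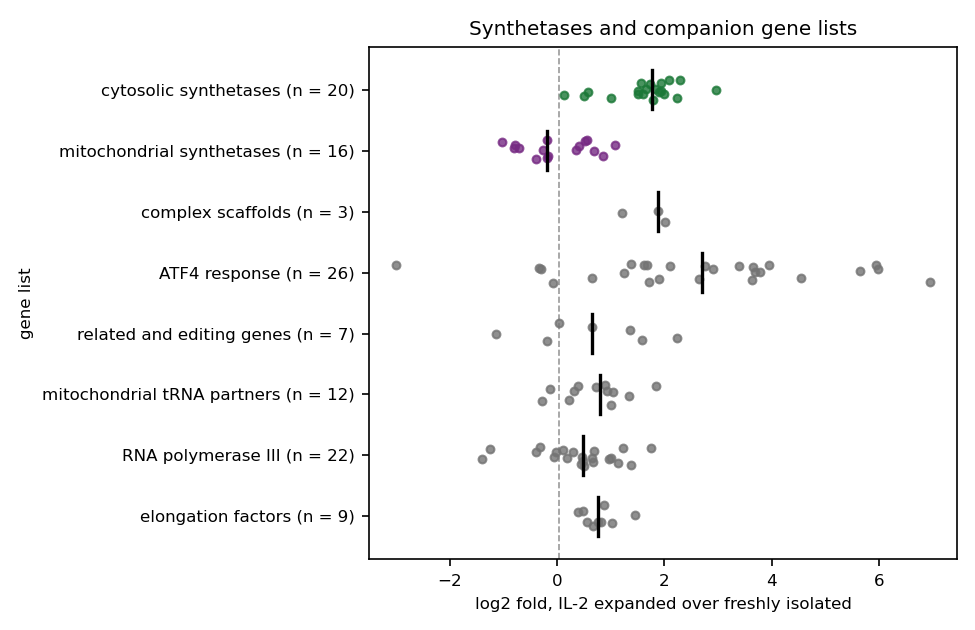
Log2 fold (expanded over freshly isolated) of each gene with a mean of at least 1 CPM in the cytosolic and mitochondrial synthetases and 6 companion lists; points are genes, spread vertically for legibility, black bars are medians and the dashed line is the median of all genes compared (0.04). The bar stands at 1.76 for cytosolic and -0.18 for mitochondrial synthetases, and at 2.70 for the ATF4 response.

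Genes related to the synthetases but outside the symbol rule divided. Of 7, 3 were at least 2-fold higher and 1 at least 2-fold lower (median log2 fold 0.65), against 22.4% higher and 25.0% lower among all genes compared. Tarsl2, a second cytosolic threonine enzyme, had 27.2 CPM in expanded and 5.71 CPM in freshly isolated cells (4.76-fold higher, 3.91 to 5.83). Dtd2, a deacylase that clears wrongly charged tRNA, had 18.4 CPM in expanded and 6.09 CPM in freshly isolated cells (3.02-fold higher). At the other end, Pstk, the kinase that acts on serine attached to the selenocysteine tRNA, had 9.23 CPM in expanded and 20.5 CPM in freshly isolated cells (2.23-fold lower), and Dtd1, another deacylase, had 16.2 CPM in expanded and 18.4 CPM in freshly isolated cells with an interval across no change.

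Partners of the mitochondrial synthetases in tRNA processing and charging had a median log2 fold of 0.81, between those of the compartments. Of 12, 4 were at least 2-fold higher, against 22.4% of all genes compared, and none was 2-fold lower. The 4 became 2 under scaling by total count, by upper quartile, by the total without the 50 most abundant genes and by the CD3 genes. Hsd17b10, a subunit of the mitochondrial RNase P, had 149 CPM in expanded and 41.5 CPM in freshly isolated cells (3.60-fold higher, 3.34 to 3.89), and Tefm, a mitochondrial transcription elongation factor, had 12.7 CPM in expanded and 4.97 CPM in freshly isolated cells (2.56-fold). The amidotransferase that completes glutaminyl-tRNA after Ears2 is built from Gatb, Gatc and Qrsl1, which were 1.65-fold, 2.02-fold and 1.30-fold higher while Ears2 was 2.04-fold lower. The members furthest down were the tRNA thiolase Trmu (10.7 CPM in expanded and 13.1 CPM in freshly isolated cells, 1.22-fold lower) and Gtpbp3 (16.6 CPM in expanded and 18.3 CPM in freshly isolated cells), whose interval spanned no change.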

How the data were processed

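The deposited values are raw read counts, whole numbers with no normalization, with 1 column for each library beside gene spans and a gene length in kb. The submitters' processing notes name HTSeq 0.6.0 and STAR 2.6.0 (as background, a read counter and an aligner), bcl2fastq 2.18.0.12 and edgeR 3.28.1, and the builds GRCm38 and mm10, which are 1 assembly. Tool settings, annotation release and strand use are not given in the sources used here, so overlapping genes on opposite strands could not be told apart. Columns and libraries were matched by title. Counts were scaled with TMM factors (edgeR 4.0.16 in R 4.3.3; 0.947 for expanded and 1.06 for freshly isolated) to CPM. Log2 folds carry a prior count of 2, while folds of single genes are plain ratios of CPM with exact conditional binomial (Clopper-Pearson) 95% intervals. Reads are not independent molecules, so intervals cover counting error only. Where a library has 0 counts, a floor of 3 counts bounds its level (0.143 CPM in expanded, 0.139 CPM in freshly isolated cells). Genes averaging 1 CPM or more entered the comparison and were called by 2-fold or 4-fold size. The calculation was checked on simulated counts. Promoter windows are from RefSeq, GRCm38.p6; the gene Mars was matched through its synonym. A gene that the rule on symbols also takes is not reported here. Every other member is named or counted, and from each companion list mainly the 2 furthest up and the 2 furthest down are named. Members and lists were chosen with earlier results of these data known.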

Additional observations from a re-analysis of the deposited data

How the results depend on the processing

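The counts, the medians, their difference and the pairs were recomputed under scaling by upper quartile, by size factors from DESeq2 1.42.0, by total count, by the total left after dropping the 50 most abundant genes, and by the CD3 genes (added after seeing the data), with prior counts of 0.5 and 5, without a filter or with a minimum of 5 CPM, and without Gars and Kars. Under these settings 15 to 17 cytosolic genes were at least 2-fold higher, the lowest number being 15 of 18 without Gars and Kars. Of all genes compared, 13.8% (without a filter) to 22.6% (prior count of 0.5) were at least 2-fold higher. The difference of medians stayed between 1.94 and 1.95. All 17 pairs kept the larger log2 fold in the cytosolic gene. A change of scaling shifts every log2 fold by nearly the same amount, and neither filter setting removed a synthetase gene. These settings therefore could not alter the difference of medians or the order within pairs, and their constancy is no check on either. The mitochondrial count fell to 0 with scaling by total count and to 0 with the total left after dropping the 50 most abundant genes, since Rars2 then lay under 2-fold. Scaling by total count, which moved the median of all genes by -0.16, gave a cytosolic median of 1.61 and reversed Vars, whose log2 fold was then -0.0228. No paired analysis was possible because each group has 1 library, and no library could be left out.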

Other observations

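The machinery that transcribes tRNA genes and the genes listed as elongation factors of translation were less apart between the libraries than the cytosolic synthetases. Of 22 genes for RNA polymerase III, its initiation factors and its repressor, 5 were at least 2-fold higher in expanded cells and 2 at least 2-fold lower, with a median log2 fold of 0.48. The higher share, 22.7%, was near the 22.4% of all genes compared, the lower count was below the 25.0% of all genes, and the 5 became 3 under scaling by total count. The polymerase subunit gene Polr3k had 98.6 CPM in expanded and 29.1 CPM in freshly isolated cells (3.38-fold higher), and Gtf3c4, of the TFIIIC complex, had 53.0 CPM in expanded and 20.3 CPM in freshly isolated cells (2.61-fold). The lower members were Maf1, the repressor of RNA polymerase III, with 54.4 CPM in expanded and 144 CPM in freshly isolated cells (2.66-fold lower, interval of the fold 0.352 to 0.403), and the initiation factor subunit Brf1, with 45.9 CPM in expanded and 109 CPM in freshly isolated cells (2.37-fold lower).

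All 9 genes listed as elongation factors were higher in expanded cells, 2 of them at least 2-fold (median log2 fold 0.76). That share, 22.2%, was near the background of 22.4%, and the 2 became 1 under scaling by total count, by upper quartile, by the total without the 50 most abundant genes and by the CD3 genes. Gfm1, the mitochondrial translocation factor, had 114 CPM in expanded and 41.6 CPM in freshly isolated cells (2.74-fold higher), and Eef1g had 240 CPM in expanded and 118 CPM in freshly isolated cells (2.04-fold). The smallest folds were those of Eef1b2, with 910 CPM in expanded and 654 CPM in freshly isolated cells, and Gfm2, with 55.8 CPM in expanded and 42.4 CPM in freshly isolated cells. Among 10 genes of amino acid sensing and MYC, 3 were at least 2-fold higher and 1 at least 2-fold lower, against 22.4% higher and 25.0% lower among all genes compared. The 3 became 1 under scaling by total count and 2 under scaling by DESeq2 size factors, by upper quartile, by the total without the 50 most abundant genes and by the CD3 genes. Eif2ak3, the kinase PERK, had 197 CPM in expanded and 64.2 CPM in freshly isolated cells (3.07-fold higher), and Gcn1l1, which activates the uncharged tRNA sensor GCN2, had 133 CPM in expanded and 61.0 CPM in freshly isolated cells. Eif2ak4, which encodes GCN2, had 35.7 CPM in expanded and 27.9 CPM in freshly isolated cells (1.28-fold higher), and Myc had 143 CPM in expanded and 116 CPM in freshly isolated cells (1.23-fold). The members furthest down were Sesn1, a sestrin that restrains mTORC1, with 40.8 CPM in expanded and 124 CPM in freshly isolated cells (3.04-fold lower), and Max, the partner of MYC, with 112 CPM in expanded and 142 CPM in freshly isolated cells (1.27-fold lower). Another sestrin gene, Sesn2, listed with the ATF4 genes, went the other way. It had 83.3 CPM in expanded and 7.90 CPM in freshly isolated cells (10.6-fold higher).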
